A study of Mus musculus with 17 samples.

Results

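The comparison described here is the genotype dependence of the TCDD effect on liver messenger RNA, that is, the TCDD effect in mice without the aryl hydrocarbon receptor (AHR) minus the TCDD effect in mice with it. It was computed as (knockout TCDD minus knockout corn oil) minus (wild type TCDD minus wild type corn oil) on the deposited log2 values, for each of 45037 probe sets of an Affymetrix mouse genome array. The 64 control probe sets were left out, and all 17 of 17 arrays of the series entered, grouped by the sample titles. A negative difference means that TCDD raised a transcript less, or lowered it more, in knockout than in wild type livers, and a positive difference means the opposite. A difference was called where its Benjamini-Hochberg adjusted p from limma was under 0.05 over all 45037 probe sets.

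The groups were AHR knockout (Ahr-/-) livers with TCDD (3 arrays) and with corn oil (3 arrays), and wild type (Ahr+/+) livers with TCDD (6 arrays) and with corn oil (5 arrays). All mice were males of a C57BL/6J background and received 1 gavage of TCDD at 1000 µg/kg or of its corn oil vehicle, and livers were taken 19 h later. Knockout mice, bought from the Jackson Laboratory, were aged 10 weeks, and wild type mice, bred in Kuopio, 15 weeks. Age and breeding site therefore cannot be told apart from genotype, in the difference of TCDD effects as in the levels. Whether each array held RNA of another mouse is not in the labels, so the spread behind every p-value, that between arrays of a group, can be partly technical.

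AHR is a ligand-activated transcription factor that waits in the cytosol, binds planar aromatic compounds such as TCDD, and enters the nucleus, where it pairs with ARNT and binds DNA at a core of GCGTG. In liver its best known targets are the cytochromes of the Cyp1 family, enzymes of conjugation, and its own feedback inhibitors Ahrr and Tiparp. The comparison asks which transcripts answered TCDD differently in livers without the receptor.

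Array correlations over all probe sets ran from 0.982 to 0.998, and no pair of arrays was alike enough to be 1 sample entered again (lowest SD of a difference between arrays, 0.18 log2). The 8 measured hepatocyte markers, among them Alb and Ttr, averaged 14.58 to 14.90 per array. Array 6 among the dosed wild type livers was unlike the rest, with a residual SD of 0.35 against 0.138 to 0.21 on the other 16 arrays. Its 3′ minus 5′ gap of the Gapdh control was 1.98, against -0.1654 to -0.0112 on the other arrays. The arrays were scanned on 3 days, and only day 2 held all 4 groups. Leaving array 6 out gave 552 called probe sets (146 higher, 406 lower), of which 447 were also called with it.

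On array 1 of the knockout TCDD group Cyp1a1 and Cyp1a2 were high for a knockout liver, while other transcripts that set the genotypes apart read as on the other knockout arrays. Cyp1a1, the most inducible target of the receptor, read 12.64 on that array, where its companions with TCDD read 5.32 and 5.34. On the same array Cyp1b1 read 3.40, Ahrr 2.40, Pcp4l1 1.92, Tiparp 5.18 and Serpina12 6.00, each near the other knockout TCDD arrays and below the wild type TCDD arrays. The probe set of Ahr itself read 9.45, 9.41 and 9.50 in knockout livers with TCDD and 9.52, 9.29 and 9.70 in knockout livers with corn oil. Its mean was 10.02 ± 0.37 in wild type livers with TCDD (SD, n = 6) and 9.89 ± 0.38 with corn oil (SD, n = 5), and its difference of TCDD effects was -0.17 ± 0.32 (SE, limma adjusted p = 0.743). The sources used here do not place this probe set inside or outside the deletion, and it therefore checks no array's genotype. Results that rest on array 1 are given with and without it.

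Genes whose TCDD effect depended on genotype were mostly genes that rose with TCDD in wild type livers, 217 of 297, and 2 of the 297 were called in knockout livers. Of 45037 probe sets 501 were called (1.11%), 388 of them lower (0.862%) and 113 higher (0.251%), against 3516 at an unadjusted p under 0.05. With 1 probe set per gene, the one with the highest mean level, 297 of 18194 genes were called (1.63%), 227 lower (1.25%) and 70 higher (0.385%). At least 1 on the log2 scale, that is 2-fold, separated the effects of 98 of the lower and 31 of the higher genes. For 28 lower and 3 higher genes the separation was at least 2 on that scale, and for 11 lower genes and 1 higher gene at least 4. In these bulk samples a loss of cells of one type and less RNA per cell cannot be told apart.

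Both terms of the difference were set side by side for the called genes, which describes how the difference was made up and adds no test, since the difference contains both terms. The 227 lower genes had a median difference of -0.91, with a median TCDD effect of -0.05 in knockout and 0.82 in wild type livers. For the 70 higher genes the median difference was 0.96, with 0.16 in knockout and -0.78 in wild type livers. The knockout term was the larger one in size for 11 of the lower and 8 of the higher genes, and the wild type term for 216 and 62. Over all 18194 genes the median difference was -0.03.

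The genes called for the wild type effect were also read in the knockout arrays. That effect is a contrast of wild type arrays, but its error was estimated over all 17 arrays, so the choice was not fully independent: leaving out 1 knockout array gave 1765 to 1859 called probe sets against 1882. TCDD raised 134 genes by at least 1 on the log2 scale in wild type livers at an adjusted p under 0.05, where 1149 genes were called in all (6.32%), 683 of them rises (3.75%) and the rest falls (2.56%). By probe set the wild type effect was called for 4.18%, with 2.54% rises and 1.63% falls. In knockout livers the median TCDD effect of these 134 genes was 0.03, against 1.52 in wild type livers, and 75 of them had a positive sign in knockout. With 1 knockout array left out the knockout median lay between 0.0056 and 0.0888, the highest without array 2 of the TCDD group. By array, their median shift from the knockout corn oil mean was 0.08, -0.03 and 0.06 on knockout TCDD arrays 1, 2 and 3. Taken gene by gene as a percentage of the wild type effect, the median was 4.98, -2.02 and 3.29 percent on these arrays.

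The 42 genes that fell by at least 1 in wild type livers had a median effect of 0.05 in knockout livers, against -1.26 in wild type livers, and 18 of them had a negative sign in knockout. The knockout median of these genes ran from -0.0108, without array 2 of the TCDD group, to 0.0903, without array 1. Of the 134 raised genes 6 (4.48%) had an unadjusted p under 0.05 for a rise in knockout livers, where 1.28% of all genes did. None of the 42 lowered genes reached that for a fall in knockout livers, where 2.0% of all genes did. The knockout effect was at least 0.5 times the wild type effect for 1 of the 134 genes and 0 of the 42. Over all probe sets, the knockout effect was called for 6 by limma (0.0133%), each of them a rise, and 1263 had an unadjusted p under 0.05. By gene these were Serpina12 and Ptgfrn (0.011% of 18194).

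**Figure D1:**
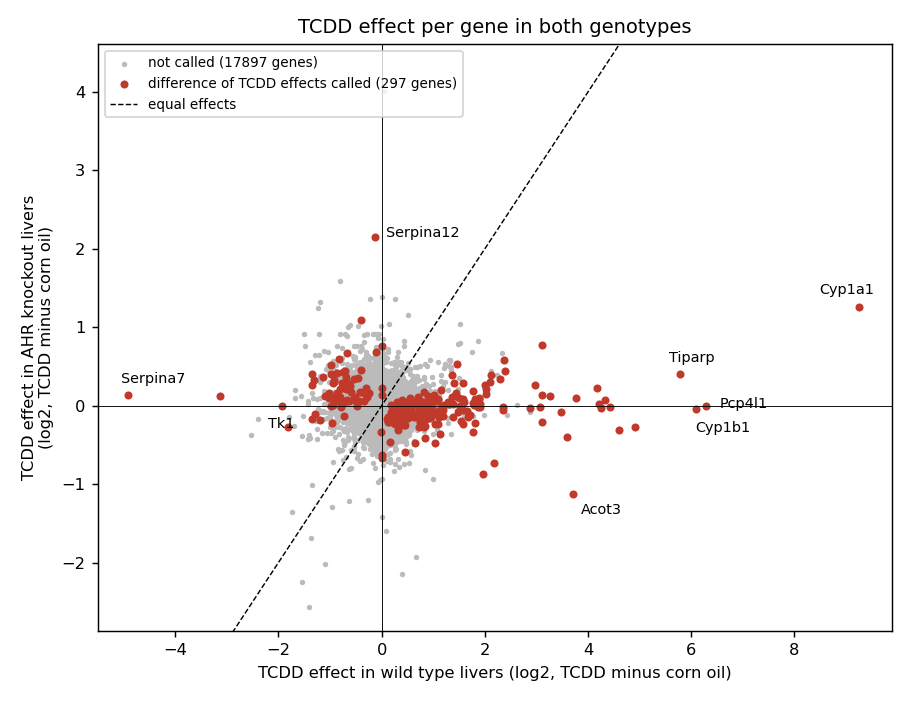
TCDD effect per gene (log2, TCDD minus corn oil) in AHR knockout livers on the vertical axis and in wild type livers on the horizontal axis, for 18194 genes with 1 probe set each. Most of the 297 genes whose difference was called (red) lie nearer the horizontal line at 0 than the dashed line of equal effects. The knockout term was the larger one for 19 of them, such as Serpina12 (2.15 in knockout and -0.13 in wild type livers) and Aph1b (1.09 and -0.40), and the Cyp1a1 value of 1.26 in knockout rests on array 1.

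Among the 13 measured genes of the receptor's own target battery, 7 were called for a lower TCDD effect in knockout than in wild type livers and 0 for a higher one, where 1.25% and 0.385% of all genes were called. By sign alone all 13 were lower. The lists used here were chosen with earlier results of these data known, so such counts are descriptions and no independent support. Some genes stand in several lists, such as Nqo1 in the NRF2 list and Fmo2 among the flavin monooxygenases below. The battery's median difference was -1.95, with a median effect of -0.02 in knockout and 2.39 in wild type livers, beside a median difference of -0.03 over all genes. The 7 genes were Cyp1a1, Cyp1b1, Tiparp, Fmo2, Nqo1, Ahrr and Nfe2l2, and the number was 8, with Cyp1a2, when array 1 of the knockout TCDD group was left out. With scan day as a block 6 stayed called, and within scan day 2 alone 5 did.

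The start regions of 6 genes with large lower differences are printed to show what the receptor's core looks like at genes that moved together and to show that some such genes lack it there. They are RefSeq windows of 250 bases before to 50 bases after the annotated start on GRCm38.p6, with the core GCGTG, or CACGC where it lies on the other strand, in capitals. The windows are those of Cyp1a1 (chr9:57697363-57697662, plus strand), Cyp1b1 (chr17:79715012-79715311, minus strand), Tiparp (chr3:65528197-65528496, plus strand), Ahrr (chr13:74292282-74292581, minus strand), Nqo1 (chr8:107403156-107403455, minus strand) and Pcp4l1 (chr1:171196219-171196518, minus strand). Ahrr was added after its values were seen.
Cyp1a1: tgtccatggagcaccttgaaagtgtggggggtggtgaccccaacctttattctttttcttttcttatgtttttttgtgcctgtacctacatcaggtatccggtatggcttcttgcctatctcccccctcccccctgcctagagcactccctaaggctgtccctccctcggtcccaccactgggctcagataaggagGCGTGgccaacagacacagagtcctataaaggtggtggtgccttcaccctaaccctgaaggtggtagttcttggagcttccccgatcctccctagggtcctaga
Cyp1b1: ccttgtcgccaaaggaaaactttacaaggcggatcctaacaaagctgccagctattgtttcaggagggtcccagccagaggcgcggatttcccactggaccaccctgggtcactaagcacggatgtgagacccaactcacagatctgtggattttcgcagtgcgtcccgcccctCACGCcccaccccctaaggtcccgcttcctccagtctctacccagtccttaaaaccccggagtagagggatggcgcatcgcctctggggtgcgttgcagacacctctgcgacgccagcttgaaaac
Tiparp: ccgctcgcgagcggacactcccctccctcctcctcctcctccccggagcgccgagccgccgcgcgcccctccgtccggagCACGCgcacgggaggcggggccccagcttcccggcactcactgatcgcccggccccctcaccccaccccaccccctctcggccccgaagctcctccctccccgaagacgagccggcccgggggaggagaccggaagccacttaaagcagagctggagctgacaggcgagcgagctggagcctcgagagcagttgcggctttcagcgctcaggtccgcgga
Ahrr: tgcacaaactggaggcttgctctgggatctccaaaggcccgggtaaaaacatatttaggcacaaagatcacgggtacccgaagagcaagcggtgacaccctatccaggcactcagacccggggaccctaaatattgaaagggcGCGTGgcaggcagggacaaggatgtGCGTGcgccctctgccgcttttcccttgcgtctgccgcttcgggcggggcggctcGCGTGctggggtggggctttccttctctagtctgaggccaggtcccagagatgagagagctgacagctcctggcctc
Nqo1: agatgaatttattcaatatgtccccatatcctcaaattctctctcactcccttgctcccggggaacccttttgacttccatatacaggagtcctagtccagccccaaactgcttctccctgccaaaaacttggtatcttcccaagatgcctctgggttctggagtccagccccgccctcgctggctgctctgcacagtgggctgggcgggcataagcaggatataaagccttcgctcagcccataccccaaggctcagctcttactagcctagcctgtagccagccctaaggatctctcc
Pcp4l1: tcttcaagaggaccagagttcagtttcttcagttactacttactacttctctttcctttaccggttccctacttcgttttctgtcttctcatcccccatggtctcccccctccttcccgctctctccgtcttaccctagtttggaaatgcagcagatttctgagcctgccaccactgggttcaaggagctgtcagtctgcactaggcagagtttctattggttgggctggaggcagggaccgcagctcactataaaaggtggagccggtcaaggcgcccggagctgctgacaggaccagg
Cyp1a1, Cyp1b1 and Tiparp held 1 core each, at -54, -76 and -170 bases relative to the start, Ahrr held 3, and Nqo1 and Pcp4l1 held none in these windows. Of the 227 genes with a called lower difference 185 had a window, and 102 of those (55.1%) held the core on either strand. The share was 49.1% (28 of 57) for called higher genes, 44.3% for all 14368 measured genes with a window, and 47.5% (38 of 80) for lower differences of at least 1. The core of the antioxidant element, TGACNNNGC, was found in 18.4% of the lower, 10.5% of the higher and 14.2% of all measured windows on either strand, each motif being searched without regard to the other. For lower differences of at least 1 the antioxidant core was found in 22.5% of windows (18 of 80). A match is a description of the letters, and a window without one says nothing of the factor.

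Cyp1b1, a cytochrome that oxidises aromatic hydrocarbons and steroids, was the plainest case. It read 3.40, 3.39 and 3.36 in knockout livers with TCDD and 3.40, 3.45 and 3.41 with corn oil. In wild type livers with TCDD it ran from 8.86 to 9.97 with a median of 9.53, and with corn oil it read 3.45, 3.44, 3.37, 3.39 and 3.40. All wild type TCDD arrays lay far above the arrays of the other 3 groups, which overlapped one another just above the array medians (3.08 to 3.19). The TCDD effect was -0.04 ± 0.22 in knockout and 6.08 ± 0.16 in wild type livers, and the difference was -6.12 ± 0.27 (SE, adjusted p = 1.86e-08). It was -5.95 with scan day as a block (adjusted p = 2.25e-06) and -5.97 within scan day 2 (adjusted p = 0.0031), which was the highest adjusted p over all alternatives.

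Tiparp, an ADP-ribosyltransferase that restrains the receptor, read 5.18, 4.99 and 5.05 in knockout livers with TCDD, against 4.68, 4.68 and 4.67 with corn oil. The 3 dosed knockout arrays lay above the 3 others, but the effect of 0.40 ± 0.29 was not called (adjusted p = 0.875). Wild type livers had Tiparp values that ran from 10.08 to 10.99 with a median of 10.49 under TCDD, and read 4.77, 5.17, 3.94, 4.67 and 5.06 with corn oil. The wild type effect of 5.78 ± 0.21 left a difference of -5.38 ± 0.36 (adjusted p = 1.48e-06, and at most 0.0101 over all alternatives). Ahrr, the receptor's repressor, averaged 2.40 ± 0.01 in knockout livers with TCDD and 2.42 ± 0.01 with corn oil (SD, n = 3 each), both below the median of every array. Its levels in wild type livers were 5.48 ± 0.86 with TCDD (SD, n = 6) and 2.41 ± 0.02 with corn oil (SD, n = 5). The difference for Ahrr was -3.08 ± 0.52 (adjusted p = 0.0087), which is a bound in size because 3 groups sat at background, and adjusted p was 0.0357 with the scan day block and 0.236 within scan day 2.

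Cyp1a1 had the largest difference and one of the least certain. Knockout livers read 12.64, 5.32 and 5.34 with TCDD and 6.54, 5.81 and 7.18 with corn oil. Wild type livers ran from 15.08 to 15.25 with TCDD (median 15.23), near the top of the scale, and read 5.74, 4.98, 6.07, 6.00 and 6.95 with corn oil. Only array 1 of the knockout TCDD group came near the dosed wild type arrays, and its 2 companions lay below every knockout corn oil array. With all arrays the difference was -8.0 ± 1.69 (adjusted p = 0.0347). Without array 1 it was -10.43 (adjusted p = 2.16e-07). The call ended when any 1 of 15 arrays was left out and with the scan day block (adjusted p = 0.193), and adjusted p over all alternatives ran between 2.16e-07 and 0.668.

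Cyp1a2, the hepatic member of the family, was likewise highest on array 1 among the knockout arrays, with 13.27, 11.69 and 11.20 in knockout livers with TCDD, against 11.40, 11.28 and 11.45 with corn oil. Wild type livers averaged 15.64 ± 0.05 with TCDD (SD, n = 6) and 13.31 ± 0.06 with corn oil (SD, n = 5). The difference of -1.66 ± 0.42 was not called (adjusted p = 0.0935). Without array 1 of the knockout TCDD group it was -2.27 and called (adjusted p = 4.22e-07), and over all alternatives adjusted p reached 0.718. The level of Cyp1a2 with corn oil was also lower in knockout than in wild type livers, by 1.93 ± 0.30 (adjusted p = 0.00364). Arnt, the partner of the receptor, was not called, with a difference of -0.19 ± 0.09 (adjusted p = 0.601).

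Nfe2l2, which encodes NRF2, the regulator of the antioxidant response, was among the called battery genes and was singled out after its values were seen. It read 10.42, 10.28 and 10.85 in knockout livers with TCDD and 9.95, 10.26 and 9.99 with corn oil, the dosed arrays just above the others. The wild type level was 12.51 ± 0.11 with TCDD (SD, n = 6) and 10.12 ± 0.20 with corn oil (SD, n = 5). The knockout effect was 0.45 ± 0.15 (adjusted p = 0.875), the wild type effect 2.39 ± 0.11, and the difference -1.95 ± 0.18 (adjusted p = 5.67e-05, and at most 0.00414 over all alternatives).

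**Figure D2:**
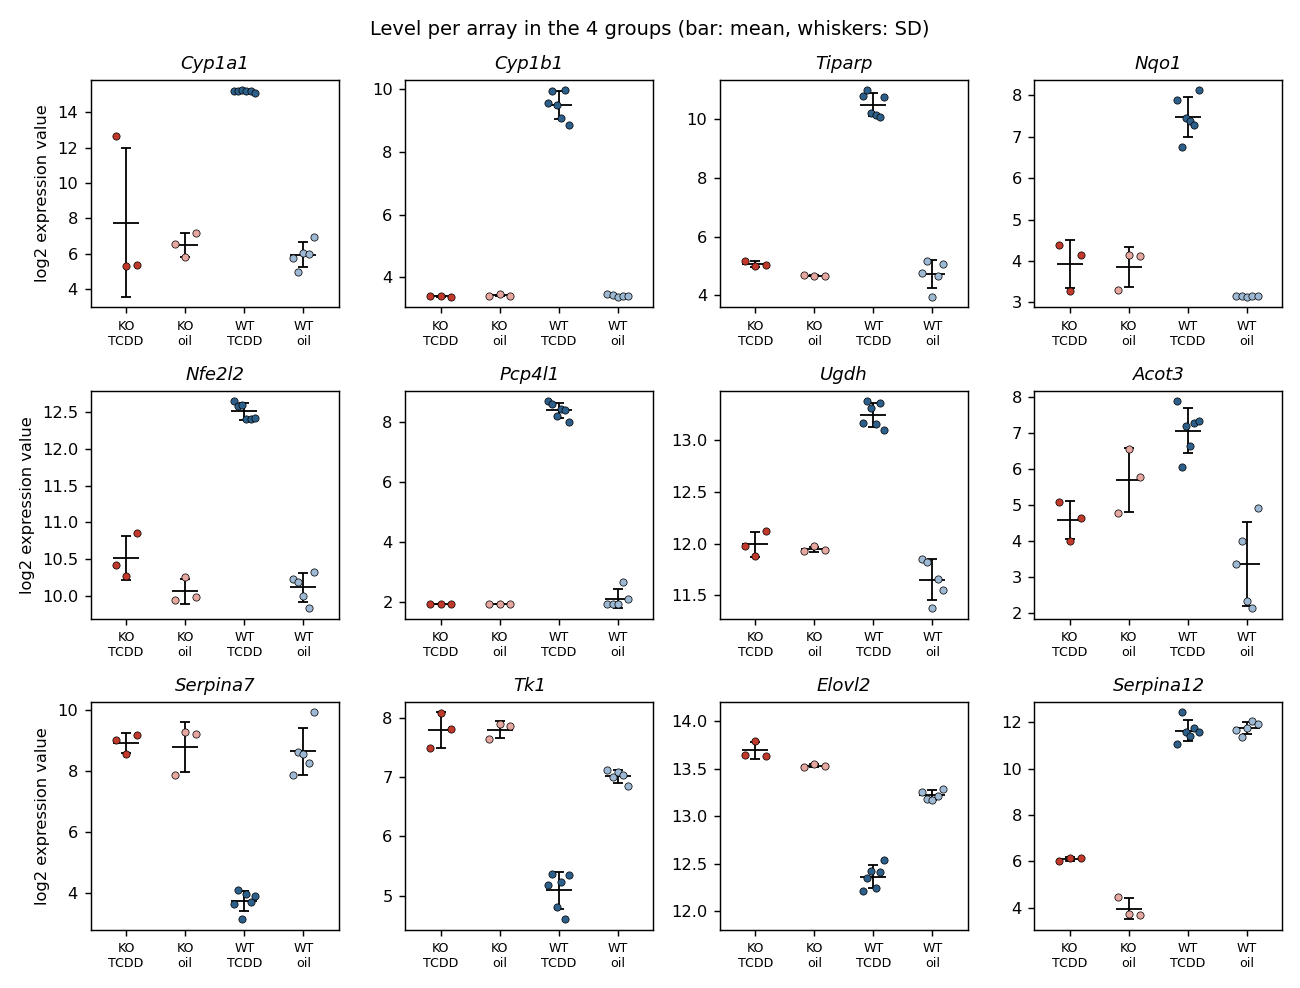
Log2 level on every array for 12 genes, with the knockout groups left of the wild type groups and TCDD left of corn oil; bars are means and whiskers SDs (n = 3, 3, 6 and 5). In the panels of Cyp1b1, Pcp4l1 and Ugdh only the wild type TCDD arrays stand away, while the Cyp1a1 panel shows 1 knockout TCDD array at 12.64 and the Serpina12 panel a shift between the knockout groups.

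Of 24 measured genes of the NRF2 antioxidant response, 12 were called for a lower TCDD effect in knockout than in wild type livers and 0 for a higher one, where 1.25% and 0.385% of all genes were called. By sign alone 20 were lower and 4 higher. The list's median effect was 0.02 in knockout and 0.57 in wild type livers, and its median difference -0.59. The count was 9 without array 1 of the knockout TCDD group, 7 with scan day as a block and 4 within scan day 2. The quinone reductase Nqo1 read 4.38, 3.28 and 4.13 in knockout livers with TCDD and 3.30, 4.14 and 4.13 with corn oil, so those groups overlapped. In wild type livers it ran from 6.75 to 8.13 with TCDD (median 7.42) and from 3.13 to 3.16 with corn oil, a level at background. The difference for Nqo1 was -4.26 ± 0.41 (adjusted p = 7.26e-05).

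The carbonyl reductase Cbr3 showed the same contrast from a level below the array medians, with a mean of 2.53 ± 0.01 in knockout livers with TCDD and 2.44 ± 0.08 with corn oil (SD, n = 3 each). Wild type livers averaged 6.18 ± 0.65 for Cbr3 with TCDD (SD, n = 6) and 2.42 ± 0.07 with corn oil (SD, n = 5), and the difference was -3.66 ± 0.40 (adjusted p = 0.00024). Sulfiredoxin, Srxn1, which repairs oxidised peroxiredoxins, had a knockout effect of 0.05 ± 0.21 and a wild type effect of 1.88 ± 0.15, for a difference of -1.83 ± 0.26 (adjusted p = 0.00237). Also called lower, and named after their values were seen, were the glutathione transferases Gstm3 (-1.79 ± 0.28), Gstm2 (-1.39 ± 0.20) and Gstm4 (-1.25 ± 0.25), probe sets of close paralogues among which cross-hybridisation could spread a signal. Gsta2, another transferase, was not called, at -1.09 ± 0.41 (adjusted p = 0.406).

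Among 29 flavin monooxygenases and conjugating enzymes 5 were called lower and 0 higher, where 1.25% and 0.385% of all genes were. Fmo2, which oxygenates soft nucleophiles, read 4.19, 4.19 and 4.47 in knockout livers with TCDD, below or within the 4.76, 4.82 and 4.20 with corn oil. The Fmo2 level in wild type livers was 8.45 ± 0.17 with TCDD (SD, n = 6) and 3.86 ± 0.22 with corn oil (SD, n = 5). Its difference, -4.90 ± 0.21 (adjusted p = 1.64e-08), was called under every alternative, with the highest adjusted p at 0.000181. The related Fmo1, expressed at a higher level, differed by -1.49 ± 0.14 (adjusted p = 3.98e-05), with an effect of -0.35 ± 0.11 in knockout and 1.13 ± 0.08 in wild type livers.

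Ugdh makes UDP-glucuronate, the sugar donor of glucuronidation, and was abundant throughout. It read 11.98, 11.88 and 12.12 in knockout livers with TCDD and 11.93, 11.97 and 11.94 with corn oil. The wild type TCDD arrays ran from 13.10 to 13.38 (median 13.24), against 11.85, 11.83, 11.38, 11.66 and 11.55 with corn oil. The knockout groups overlapped and the wild type groups did not, and the difference was -1.55 ± 0.14 (adjusted p = 3.57e-05, at most 0.0261 over all alternatives). The glucuronosyltransferase Ugt2b35 differed by -0.85 ± 0.12 (adjusted p = 0.00218), and the sulfotransferase Sult5a1 by -1.82 ± 0.33 (adjusted p = 0.0148). The Sult5a1 call ended without array 1 of the knockout corn oil group, and with the scan day block, where the difference was -1.35 (adjusted p = 0.135).

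Of the 12 largest lower differences, those of Cyp1a1, Cyp1b1, Tiparp, Fmo2 and Nqo1 were given above with their lists. Acot3, a thioesterase in another list, is described further on, and the remaining genes belonged to no list used here. Pcp4l1, at 1.92, 1.92 and 1.93 in knockout livers with TCDD and 1.93, 1.93 and 1.92 with corn oil, sat below every array median. Its levels in wild type livers ran from 8.0 to 8.69 with TCDD (median 8.41), and read 1.94, 1.93, 1.92, 2.67 and 2.09 with corn oil. The difference of -6.28 ± 0.23 (adjusted p = 4.02e-09) was the largest whose call survived every alternative, and it is a bound in size, as 3 groups were at background.

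Tuba8, an alpha-tubulin, stood out by its level in the knockout. It read 7.84, 7.20 and 7.34 in knockout livers with TCDD and 7.98, 7.53 and 7.70 with corn oil, and between 9.50 and 10.26 in wild type livers with TCDD (median 9.94), against 5.24, 5.30, 4.87, 4.88 and 4.88 with corn oil. Knockout livers without TCDD thus lay between both wild type groups, 2.70 ± 0.19 above wild type livers with corn oil (adjusted p = 3.35e-06), and their level did not respond detectably to the dose (-0.28 ± 0.21, adjusted p = 0.875). The difference of effects for Tuba8 was -5.18 ± 0.26 (adjusted p = 6.41e-08, at most 0.00434 over all alternatives).

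The phosphomannomutase Pmm1 read 3.64 ± 0.00 in knockout livers with TCDD and 3.66 ± 0.01 with corn oil (SD, n = 3 each), against 8.0 ± 0.31 in wild type livers with TCDD (SD, n = 6) and 3.57 ± 0.07 with corn oil (SD, n = 5). Its difference was -4.44 ± 0.19 (adjusted p = 1.59e-08). Fabp12, of the fatty acid-binding protein family, differed by -4.27 ± 0.30 (adjusted p = 3.05e-06). Its means in the 3 groups other than wild type TCDD, 2.60 to 2.66, lay below every array median, so this is a bound in size. The difference of Tnfrsf19, a receptor of the tumour necrosis factor family, was -4.18 ± 0.37 (adjusted p = 3.21e-05). For Pla2g12a, a secreted phospholipase A2, it was -4.0 ± 0.42 (adjusted p = 0.000181), with an effect of -0.40 ± 0.34 in knockout and 3.6 ± 0.25 in wild type livers. These 4 genes were called under every alternative, and their highest adjusted p were 0.00248, 0.00685, 0.00504 and 0.0094.

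A few further genes were singled out after their values were seen. Slc46a3, a lysosomal membrane transporter, had an effect of 0.13 ± 0.19 in knockout and 3.1 ± 0.14 in wild type livers, a difference of -2.97 ± 0.23 (adjusted p = 9.69e-06). The xanthine dehydrogenase Xdh, of purine breakdown, had -0.15 ± 0.08 in knockout and 1.68 ± 0.06 in wild type livers, a difference of -1.83 ± 0.10 (adjusted p = 1.6e-07). Nr1i3, the nuclear receptor CAR, differed by -2.03 ± 0.27 (adjusted p = 0.00157), with 9.07 ± 0.24 in knockout livers with TCDD and 9.29 ± 0.37 with corn oil (SD, n = 3 each), against 11.53 ± 0.15 in wild type livers with TCDD (SD, n = 6) and 9.73 ± 0.35 with corn oil (SD, n = 5).

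**Figure D3:**
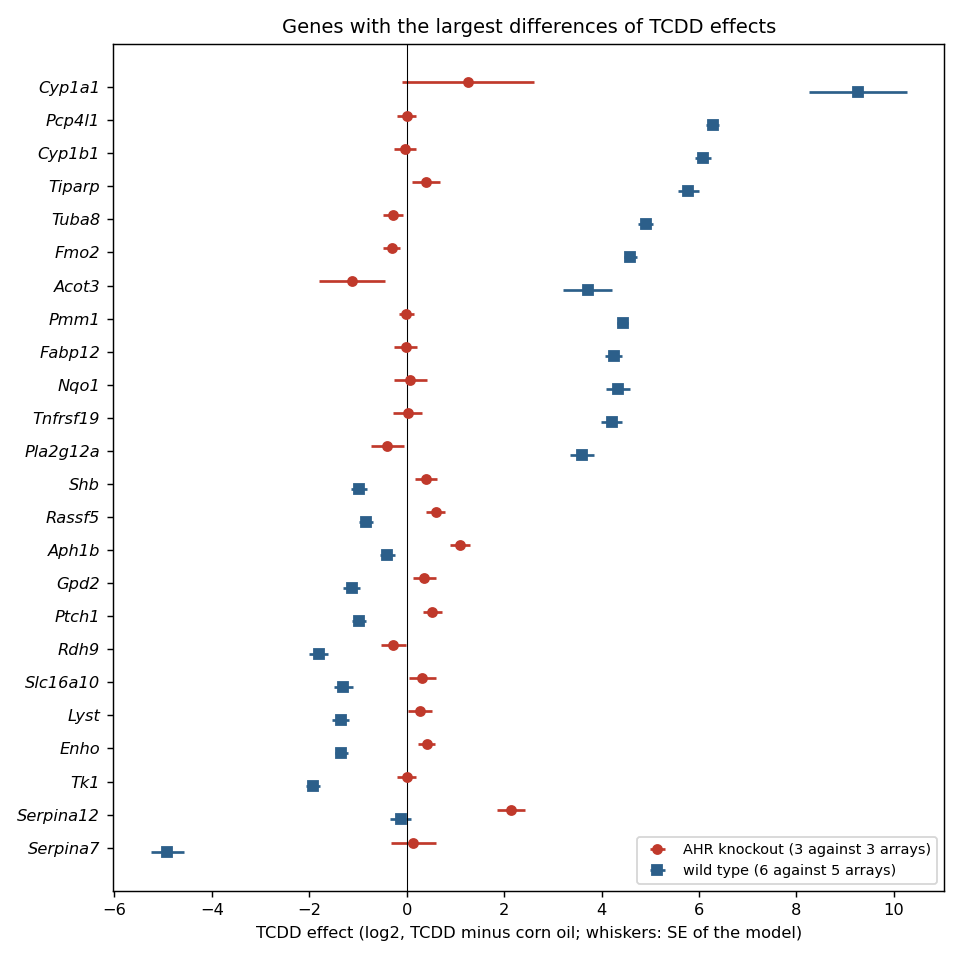
TCDD effect with its SE (log2) in knockout (red circles, drawn above) and wild type livers (blue squares) for the 12 most negative and 12 most positive called differences. Genes with clone names were left out of this ranking. The knockout points past 1 in size are those of Cyp1a1 (1.26 ± 1.36), Acot3 (-1.12 ± 0.68), Serpina12 (2.15 ± 0.29) and Aph1b (1.09 ± 0.21), and the other 20 lie between -0.40 and 0.60.

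The 3 called genes among 30 measured genes of fatty acid oxidation were acyl-CoA thioesterases, which release free fatty acids from their CoA esters. All were lower, where 1.25% of all genes were called lower. Acot3 read 5.08, 4.01 and 4.65 in knockout livers with TCDD and 4.77, 6.55 and 5.78 with corn oil. In wild type livers it ran from 6.06 to 7.88 with TCDD (median 7.23), against 3.36, 3.99, 2.34, 2.13 and 4.93 with corn oil, with no overlap between the wild type groups. The difference for Acot3 was -4.84 ± 0.84 (adjusted p = 0.0102), for Acot4 -2.84 ± 0.59 (0.0319) and for Acot1 -1.88 ± 0.31 (0.00676). Acot2 missed the threshold at -1.04 ± 0.24 (adjusted p = 0.0562). These genes lie together on chromosome 12, which also carries Ahr, and resemble each other in sequence, so that a probe set can read several of them. The Acot4 call ended without any 1 of 10 arrays, and Acot1 and Acot4 were not called with the scan day block (adjusted p = 0.0864 and 0.0592). Acot3 was not called with the replicate block (adjusted p = 0.0512), and its adjusted p reached 0.14 over all alternatives. Over the whole list the median difference was -0.14.

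Synthesis genes of fatty acids held 2 called members of 34, both higher in the knockout contrast, which means that a fall in wild type livers was absent or smaller in knockout livers. Over all genes 0.385% were called higher. Elovl2, the elongase of long polyunsaturated fatty acids, read 13.65, 13.80 and 13.64 in knockout livers with TCDD, all above the 13.52, 13.55 and 13.53 with corn oil. The wild type TCDD arrays ran from 12.21 to 12.54 (median 12.38), all below the 13.26, 13.18, 13.18, 13.21 and 13.29 with corn oil. The difference of 1.02 ± 0.09 (adjusted p = 1.85e-05) was called under every alternative (at most 0.0252). Insig2, which retains the sterol sensor in the endoplasmic reticulum, differed by 1.03 ± 0.22 (adjusted p = 0.0346), and leaving out any 1 of 12 arrays, or the scan day block (adjusted p = 0.0764), ended that call. Srebf1, the transcription factor of this pathway, was not called at 1.34 ± 0.34 (adjusted p = 0.102), nor was Fasn at 0.86 ± 0.53 (0.631). For cholesterol synthesis and uptake limma called 0 of 23 measured genes, while 4 had an unadjusted p under 0.05, as did 1998 of all 18194 genes.

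Among 29 bile acid genes 3 were called lower, where 1.25% of all genes were called lower and 0.385% higher. Klb, the co-receptor for fibroblast growth factors that limit bile acid synthesis, differed by -1.09 ± 0.23 (adjusted p = 0.0343, lost without any 1 of 10 arrays). The exporter Abcc3 differed by -1.03 ± 0.17 (0.00881), and the side-chain oxidase Acox2 by -0.59 ± 0.11 (0.0183, lost without array 2 of the knockout TCDD group or array 1 or 2 of the knockout corn oil group). Among 31 genes of glucose metabolism 2 were called lower, the glucokinase regulator Gckr at -0.96 ± 0.16 (0.00911) and the gluconeogenic phosphatase Fbp1 at -0.54 ± 0.09 (0.00709). Of 34 cytochromes of families 2 to 4, Cyp2u1 was called higher at 1.19 ± 0.23 (0.0238) and Cyp2c70, which makes muricholic acids in mice, at 0.91 ± 0.20 (0.0391). Those calls ended without any 1 of 4 and 13 arrays, and with the scan day block (adjusted p = 0.173 and 0.245), as did that of Fbp1 (0.0764). The medians of these 3 lists were 0.04, -0.01 and 0.07.

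Of 43 measured genes of amino acid breakdown and the urea cycle 1 was called lower, a share near the 1.25% of all genes, and 3 higher, where 0.385% of all genes were. Nags, which makes the activator of the cycle, averaged 9.42 ± 0.18 in knockout livers with TCDD and 9.56 ± 0.04 with corn oil (SD, n = 3 each), against 10.40 ± 0.17 in wild type livers with TCDD (SD, n = 6) and 9.22 ± 0.15 with corn oil (SD, n = 5). Its difference was -1.32 ± 0.15 (adjusted p = 0.000315). Called higher were Otc of the urea cycle (0.52 ± 0.11, adjusted p = 0.0315), the kynureninase Kynu (0.75 ± 0.16, adjusted p = 0.0336) and the glutamine synthetase Glul (0.70 ± 0.11, 0.00688). The Kynu call ended without any 1 of 11 arrays. With the scan day block 0 genes of the list were called higher, so all 3 of these calls ended (adjusted p = 0.0914 for Kynu and 0.0818 for Glul). For Glul, a marker of hepatocytes around the central vein, the knockout effect was 0.06 ± 0.09 and the wild type effect -0.64 ± 0.07. The list's median difference was 0.21, with -0.03 in knockout and -0.27 in wild type livers, and 32 of its 43 genes had a positive sign.

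Of 29 haem and iron genes 3 were called higher and 1 lower, where 0.385% and 1.25% of all genes were. The metalloreductase Steap4 differed by 1.23 ± 0.19 (adjusted p = 0.00358), the ferroxidase ceruloplasmin Cp by 0.59 ± 0.09 (0.00314) and the metal importer Slc39a14 by 0.58 ± 0.12 (0.0349). Blvrb, a biliverdin reductase, differed by -0.96 ± 0.14 (0.00306). With the scan day block 2 genes of this list were called higher and 1 lower. The counts were the same without array 1 of the knockout TCDD group and without array 6 of the wild type TCDD group. Steap4 is also counted among 43 measured acute phase genes, where it was the only called member. Complement factor B, Cfb, was the 1 called gene of 36 in complement and coagulation, with a small but tight difference of -0.36 ± 0.05 (0.00159). Its knockout levels were 13.05 ± 0.03 with TCDD and 13.09 ± 0.02 with corn oil (SD, n = 3 each), against 13.60 ± 0.04 in wild type livers with TCDD (SD, n = 6) and 13.27 ± 0.07 with corn oil (SD, n = 5).

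Usp18, a protease that removes the ubiquitin-like modifier ISG15, was called alone among 30 interferon-stimulated genes. It read 5.66, 4.89 and 6.37 in knockout livers with TCDD and 6.57, 6.41 and 6.16 with corn oil. In wild type livers it ran from 8.27 to 9.27 with TCDD (median 8.89), against 6.55, 6.18, 6.92, 6.60 and 7.0 with corn oil. Only the wild type TCDD arrays stood apart, and the difference was -2.91 ± 0.43 (adjusted p = 0.00306, and at most 0.0885 over all alternatives). The list as a whole had a median difference of -0.02, with -0.02 in knockout and 0.01 in wild type livers. Its 1 call among 30 genes stands beside 1.25% of all genes called lower.

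The largest higher difference was that of Serpina7, the thyroxine-binding globulin of plasma. It read 8.99, 8.55 and 9.18 in knockout livers with TCDD and 7.84, 9.28 and 9.20 with corn oil, so these groups overlapped. The wild type TCDD arrays ran from 3.12 to 4.08 (median 3.79), and read 7.85, 8.62, 8.54, 8.27 and 9.91 with corn oil. The knockout effect of 0.13 ± 0.46 and the wild type effect of -4.91 ± 0.34 gave a difference of 5.05 ± 0.58 (adjusted p = 0.000377, at most 0.00621 over all alternatives). Slc16a10, a transporter of thyroid hormones and aromatic amino acids, was the other called gene of 23 in the hormone list, at 1.63 ± 0.34 (adjusted p = 0.0314), and its call ended without any 1 of 7 arrays. Among all genes 0.385% were called higher.

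Tk1, the thymidine kinase of DNA synthesis, read 7.49, 8.09 and 7.80 in knockout livers with TCDD and 7.64, 7.89 and 7.86 with corn oil. In wild type livers it ran from 4.60 to 5.36 with TCDD (median 5.21), against 7.11, 7.0, 7.08, 7.03 and 6.84 with corn oil, with no overlap. The difference was 1.92 ± 0.24 (adjusted p = 0.000694), and within scan day 2 alone it was 1.97 and missed the threshold (0.139). None of the other 34 measured cell cycle genes was called by limma, among which 5 had an unadjusted p under 0.05, and the list's median difference was -0.03. Of all 18194 genes 1998 had such a p, and 0.385% were called higher. Enho, which encodes the secreted peptide adropin, differed by 1.75 ± 0.23 (adjusted p = 0.00126), with 9.57 ± 0.08 in knockout livers with TCDD and 9.17 ± 0.08 with corn oil (SD, n = 3 each), against 7.70 ± 0.26 in wild type livers with TCDD (SD, n = 6) and 9.04 ± 0.29 with corn oil (SD, n = 5).

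Enho and others of these genes had a positive effect in knockout livers that did not pass the test there, beside a fall in wild type livers. They were chosen by a called higher difference, which contains the knockout effect, so the choice itself favours a positive sign there. Among them were Elovl2, Lyst, Slc16a10, Gpd2, Shb, Ptch1 and Rassf5. For Serpina7 the knockout effect of 0.13 changed sign with the scan day block (-0.39). Ptch1, the hedgehog receptor, had 0.52 ± 0.20 in knockout and -0.98 ± 0.15 in wild type livers, a difference of 1.5 ± 0.24 (adjusted p = 0.00634). That difference rests on 1 of 3 probe sets of Ptch1, as the other 2 had the opposite sign and were not called. The Ras-binding protein gene Rassf5 had 0.60 ± 0.19 in knockout and -0.84 ± 0.14 in wild type livers, a difference of 1.43 ± 0.24 (0.00781). For both genes and Enho each dosed knockout array lay above each knockout corn oil array, but none of the 3 effects was called in knockout (adjusted p = 0.875 for each). The share of all genes with such a separation is not given here, so the separation adds no support. Ptch1 and Rassf5 lost their call with the scan day block (adjusted p = 0.0595 and 0.0652).

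The remaining higher differences among the 12 largest, with clone names left out, included that of Lyst (1.63 ± 0.30, adjusted p = 0.0145), a regulator of lysosomal trafficking. The others were those of the retinol dehydrogenase Rdh9 (1.54 ± 0.32, 0.0318), the mitochondrial glycerophosphate dehydrogenase Gpd2 (1.49 ± 0.30, 0.025) and the adaptor Shb (1.38 ± 0.28, 0.0304). Rdh9 was the only called gene of 27 in retinoid metabolism, where 0.385% of all genes were called higher. Its probe set may read related dehydrogenases. Calls for Rdh9, Gpd2 and Shb ended without any 1 of 9, 5 and 9 arrays, and those for Rdh9 and Gpd2 also with the scan day block (adjusted p = 0.187 and 0.197). Gpd2 started 1.33 ± 0.21 lower in knockout than in wild type livers with corn oil (adjusted p = 0.00463).

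A small group of genes differed by genotype although TCDD did not detectably change them in wild type livers. Serpina12, which encodes the secreted inhibitor vaspin and lies on chromosome 12, was the clearest. It read 6.00, 6.14 and 6.16 in knockout livers with TCDD, all above the 4.47, 3.71 and 3.67 with corn oil. Values of wild type livers with TCDD ran from 11.06 to 12.43 (median 11.59) and overlapped the 11.68, 11.38, 11.77, 12.06 and 11.95 with corn oil. The effect was 2.15 ± 0.29 in knockout (adjusted p = 0.0281) and -0.13 ± 0.21 in wild type livers, and the difference 2.27 ± 0.36 (adjusted p = 0.00506, at most 0.0692 over all alternatives). With corn oil the knockout level was lower than the wild type level by 7.81 ± 0.26 (adjusted p = 1.61e-09). The call in knockout itself ended without any 1 of 8 arrays (range 2.0 to 2.40) and with the scan day block (adjusted p = 0.279). These values come from 1 of 2 probe sets of Serpina12, and on the other the difference had the opposite sign and was not called.

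Ptgfrn was the other gene called in knockout livers, at 3.32 ± 0.03 with TCDD and 3.1 ± 0.02 with corn oil (SD, n = 3 each), a shift of 0.23 ± 0.03 (adjusted p = 0.0281) at the level of the array medians. Its difference was 0.21 ± 0.04 (adjusted p = 0.0115, and 0.117 with the scan day block), and the call in knockout ended without any 1 of 6 arrays. Aph1b, a gamma-secretase subunit, read 5.61, 5.69 and 5.68 in knockout livers with TCDD and 4.65, 4.31 and 4.74 with corn oil, and its difference was 1.49 ± 0.26 (adjusted p = 0.0103, and 0.0722 with the scan day block). The wild type mean was 3.61 ± 0.33 with TCDD (SD, n = 6) and 4.01 ± 0.25 with corn oil (SD, n = 5). Lhfp (0.86 ± 0.19, 0.0424) and the kinase gene Hunk (0.79 ± 0.17, 0.037) were called higher and lost the call without any 1 of 13 and 14 arrays and with the scan day block (adjusted p = 0.141 and 0.223).

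In the other direction, 10 genes without a called wild type effect had a called lower difference. The 4 largest that have a gene name were Usp6nl, which encodes a Rab GTPase-activating protein (-1.05 ± 0.23, adjusted p = 0.0419), the glycerophosphate acyltransferase Gpat3 (-0.67 ± 0.13, 0.0249), Pogk (-0.64 ± 0.14, 0.0355) and the peptide and histidine transporter Slc15a3 (-0.63 ± 0.14, 0.045). Gpat3 read 2.87, 2.26 and 2.60 in knockout livers with TCDD and 3.13, 3.18 and 3.42 with corn oil, against 2.17 to 2.22 in wild type livers with TCDD and 2.16 to 2.19 with corn oil. These Gpat3 values lay near or below the array medians, as did those of Pogk in 3 groups. The 4 calls ended without any 1 of 14, 2, 15 and 11 arrays, and none of them passed with the scan day block.

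Some large wild type effects were not called for the difference of effects, which does not show that both genotypes responded alike. Lrp4, a lipoprotein receptor-related protein, had -0.08 ± 0.55 in knockout and 2.88 ± 0.41 in wild type livers, and its difference of -2.96 ± 0.68 missed the threshold (adjusted p = 0.0565). Without array 6 of the wild type TCDD group, where it read 7.01 against 8.84 to 9.38 on the others, the Lrp4 difference was called (adjusted p = 0.0024). The sperm protein gene Smcp (-2.62 ± 0.74, adjusted p = 0.159) and the peroxisomal transporter Abcd2 (-2.54 ± 0.80, 0.238) were not called either. Abcd2 read 7.19, 6.04 and 6.81 in knockout livers with TCDD and 5.98, 7.55 and 6.87 with corn oil, and averaged 6.80 ± 0.58 in wild type livers with TCDD (SD, n = 6) and 4.38 ± 1.12 with corn oil (SD, n = 5). Smcp was called when array 4 of the wild type TCDD group was left out.

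The hepcidin transcript Hamp, the hormone that limits iron uptake, read 14.94, 14.86 and 14.79 in knockout livers with TCDD and 14.80, 14.91 and 14.60 with corn oil. The wild type TCDD arrays ran from 11.60 to 13.68 (median 13.17), all below the 14.86, 14.82, 14.63, 14.10 and 14.69 with corn oil. The difference of 1.78 ± 0.51 for Hamp was not called (adjusted p = 0.177), nor was that of Hamp2, a close paralogue (2.16 ± 0.66, 0.218). The gluconeogenic enzyme Pck1 had 0.20 ± 0.38 in knockout and -1.68 ± 0.28 in wild type livers, a difference of 1.88 ± 0.47 (adjusted p = 0.0866), which was called without array 3 of the wild type TCDD group. For the phosphodiesterase Pde4b the difference was 1.44 ± 0.63 (adjusted p = 0.582). The spread among dosed wild type arrays was wide for these genes, with SDs of 0.69 to 0.97 for Hamp, Hamp2, Pck1 and Pde4b.

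The other pathway lists held few called genes, where 1.25% of all genes were called lower and 0.385% higher. Of 25 genes that follow the pulse pattern of growth hormone, Acot3 was called lower and Cyp2u1 higher, and of 24 genes of p53 and growth arrest only Perp was called, at -0.47 ± 0.10 (adjusted p = 0.0391, lost without any 1 of 12 arrays and with the scan day block). For the response to unfolded proteins and amino acid shortage limma called 0 of 35 measured genes, for the clock 0 of 21 and for heat shock proteins 0 of 21, while 6, 3 and 2 had an unadjusted p under 0.05. Such a p was found for 1998 of all 18194 genes. The stress response list had a median difference of 0.23, with -0.07 in knockout and -0.30 in wild type livers, and its sensor Eif2ak3 came nearest to a call (1.40 ± 0.33, adjusted p = 0.0695). The clock median was 0.21 and turned to -0.03 with the scan day block.

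Markers of cell types were measured beside these results. None of the 8 hepatocyte, 12 endothelial, 13 Kupffer cell, 12 stellate cell, 6 biliary, 12 lymphocyte, 8 neutrophil, 7 erythroid and 5 adipocyte markers was called by limma, while 2, 4, 1, 4, 0, 0, 1, 1 and 0 of them had an unadjusted p under 0.05. Those counts are for the difference of TCDD effects, where 1998 of all 18194 genes had an unadjusted p under 0.05. For the wild type effect, 4 hepatocyte, 3 endothelial and 1 stellate cell markers were called as falls, where 2.56% of all genes were. With the scan day block, and without array 6 of the wild type TCDD group, 1 endothelial marker was called for a higher difference. Median differences were 0.29 for endothelial and 0.25 for stellate cell markers, and between -0.09 and 0.06 for the others. The summed level of a list, given as the mean over its markers, ran for endothelial cells from 7.21 to 7.37 in knockout livers with TCDD and 7.16 to 7.47 with corn oil, against 6.93 to 7.18 in wild type livers with TCDD and 7.20 to 7.28 with corn oil. The defining lymphocyte, neutrophil and adipocyte markers Cd3d, S100a8 and Adipoq lay below the array medians in all group means. Of 7 markers of exocrine pancreas 1 was called, the elastase gene Cela1 (1.23 ± 0.17, adjusted p = 0.00188), which liver read at 7.61 to 9.42 in group means, while the other 6 stayed between 2.01 and 3.94. Among all genes 0.385% were called higher. The part of cell makeup in the endothelial and stellate shifts was not tested.

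**Figure D4:**
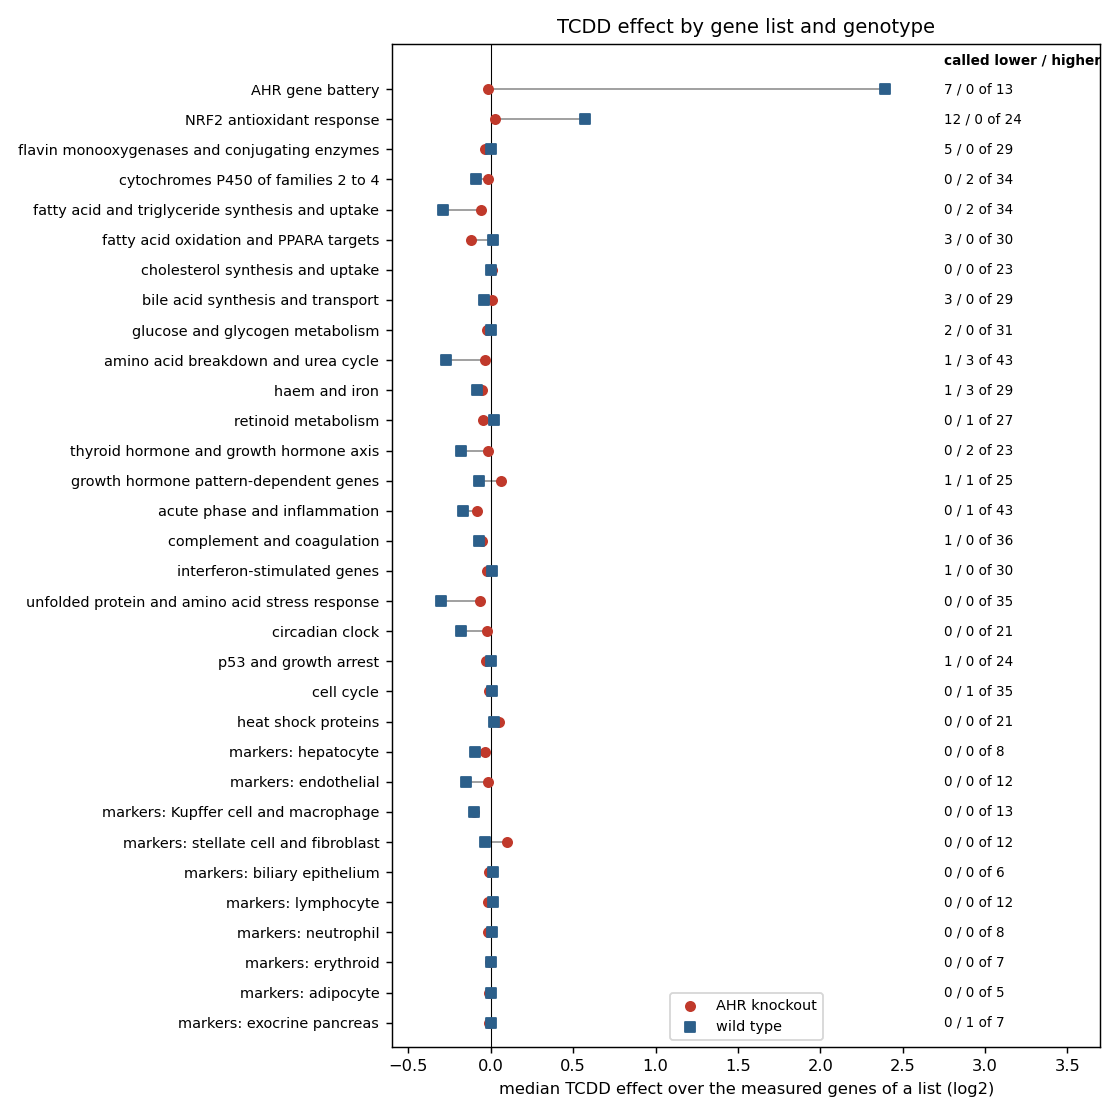
Median TCDD effect (log2) over the measured genes of each of 32 lists in knockout (red circles) and wild type livers (blue squares), with the number of genes whose difference was called lower and higher at the right. The receptor battery (-0.02 in knockout and 2.39 in wild type livers) and the NRF2 list (0.02 and 0.57) are set apart from the other lists, whose medians lie between -0.30 and 0.10.

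Scan day and single arrays moved the number of calls more than their direction. Blocking on scan day left 239 calls (42 higher, 197 lower), 213 of them also called without it, and within scan day 2 alone, with 1 array in the knockout corn oil group, 310 were called (52 higher, 258 lower), 83 of them shared. Leaving out 1 array gave 333 to 552 calls, the lowest without array 1 of the knockout corn oil group. Of 61 called genes named here 38 remained called with the block, 21 within scan day 2 and 41 whichever array was left out, and all 61 had the same sign under all those settings. Without array 1 of the knockout TCDD group 494 probe sets were called (156 higher, 338 lower), 391 of them shared.

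**Figure D5:**
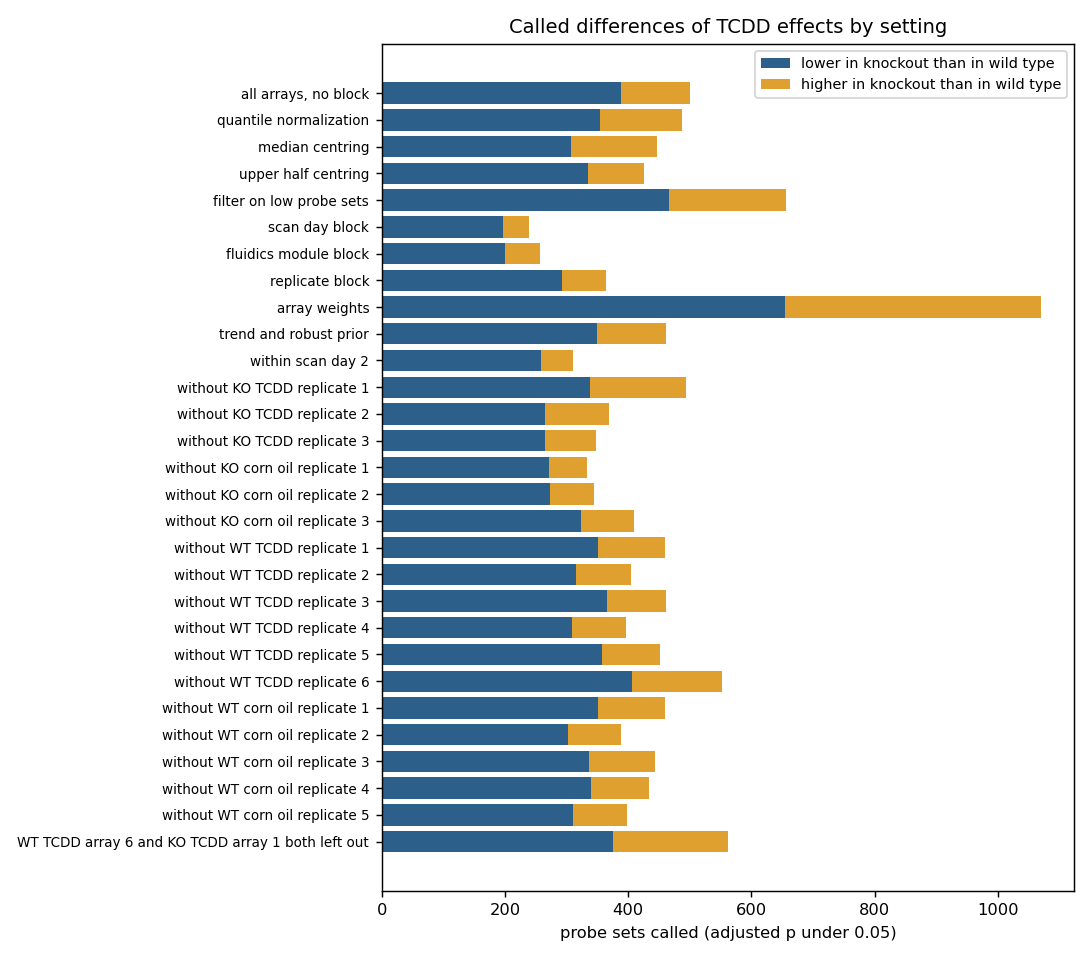
Number of probe sets whose difference of TCDD effects was called, lower in knockout (blue) and higher in knockout (orange), for the analysis with all arrays and for each alternative. Lower calls outnumber higher ones throughout, and the total lies between 239 with scan day as a block and 1071 with array weights.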

How the data were processed

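Liver RNA was hybridised to 1 Affymetrix array per sample, and the deposited values were log2 signals normalized by the authors. RMA, GCRMA and affy 1.5.8 are named, per the submitters' processing notes, without saying which method produced the table. Of 45101 probe sets 64 controls were left out. Groups came from the sample titles. With 13 residual degrees of freedom, lmFit and eBayes of limma 3.58.1 (R 4.3.3) fitted 1 mean per group over all 17 arrays, and p-values were adjusted by Benjamini-Hochberg over 45037 probe sets. Of these 34945 named 1 gene, 932 several and 9160 none, by the platform annotation, and 18194 genes were each represented by their brightest probe set on average. Simulated data on 45037 probe sets returned 66 of 100 changes of 1 and 90 of 100 changes of 2, with 11 false calls. The changes were set in the knockout TCDD group, on probe sets with a mean above the median only. Noise was normal and independent between arrays, so low probe sets and scan day effects were not simulated. The number of arrays limits the precision.

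Named genes were 8 receptor genes, the 12 largest called differences each way, up to 3 called genes per list, the 4 largest wild type rises and falls not called for the difference, the 4 largest differences each way without a called wild type effect, and genes called in knockout. Clone names were left out. Nfe2l2, Nr1i3, Slc46a3, Xdh, Gstm2, Gstm3, Gstm4, Gsta2, Fmo1, Ugt2b35, Acot2, Otc, Slc39a14, Srebf1, Fasn and Eif2ak3 were added after their values were seen. The comparison, the lists and this rule were chosen with earlier results of these data known. Same-numbered arrays of different groups did not deviate together (correlations -0.27 to 0.13), and the numbers were not used to pair samples. Such correlations cannot show that the numbers carry no pairing. Alternatives were other scalings, a filter on low probe sets, blocks for scan day, fluidics module and replicate number, array weights, a trended prior, scan day 2 alone, and each array left out.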

Additional observations from a re-analysis of the deposited data

Results flagged for a closer look

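Within groups of 4 to 10 arrays, 15 of 142 sets of values held 1 array far from the others by Dixon's criterion, where chance gives about 1 in 20, and 5 of the 15 lay on array 6 of the wild type TCDD group. On that array Cyp1a1 read 15.08 (others 15.2 to 15.25), Cyp1a2 15.54 (15.64 to 15.68), Sult5a1 8.44 (9.09 to 9.32), Lrp4 7.01 (8.84 to 9.38) and Hunk 3.94 (3.9 to 3.91). In control probe sets that enter no comparison, its Gapdh 3′ minus 5′ gap was 1.98, against -0.1654 to -0.0112 on the other arrays. The part of this array's quality in those values was not tested.

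On other wild type TCDD arrays, Slc16a10 read 7.3 on array 3 (others 7.77 to 8.01), Usp6nl 7.64 on array 3 (7.2 to 7.34), Rdh9 7.8 on array 2 (8.53 to 8.81) and Srxn1 10.57 on array 2 (10.01 to 10.2). Among wild type corn oil arrays, Pcp4l1 read 2.67 on array 4 (1.92 to 2.09) and Hamp2 9.09 on array 4 (10.06 to 10.2). Pmm1 read 3.45 on array 3 (3.58 to 3.61) and Tnfrsf19 4.39 on array 5 (3.33 to 3.6). On array 1 of that group Acox2 read 11.35 (11.68 to 11.8) and Glul 12.63 (12.85 to 12.93). The knockout groups, with 3 arrays each, were too small for this criterion.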

How the results depend on the processing

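Against 501 called differences, scan day as a block gave 239, the fluidics module as a block 256, array weights 1071 and scan day 2 alone 310, and leaving out 1 array gave 333 to 552. The replicate block gave 364 (72 higher, 292 lower), 303 of them shared, although the labels do not say that the numbers pair samples. Of the 61 named calls 38 remained with the replicate block and 35 with the module block, and every named difference kept its sign under the alternatives run. Calls in knockout numbered 6 with all arrays, 1 with the scan day block, 0 with the replicate block and 1 to 34 with 1 array left out. Of genes called in wild type, the median knockout effect was -0.0187 for rises and -0.006 for falls, and 0.0316 and 0.0453 where the wild type effect was at least 1. Genes called numbered 339 by the probe set with the lowest p and 342 by the mean over probe sets, against 297. Levels below the array medians limit the size of a difference. The causes of these shifts were not tested.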
